A study of Caenorhabditis elegans with 6 samples.

Results

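In the uniquely annotated clusters recovered with the double-stranded RNA binding protein ADR-1, 126 protein-coding genes of Caenorhabditis elegans carried exactly 1 cluster placed in the 3' UTR alone. They are 126 of the 232 genes with any such cluster, of 290 protein-coding genes with a cluster of any kind and of 363 gene identifiers in the list; the other 106 genes had 2 or more. Genes were chosen by the number of listed clusters, and clusters had entered the list by the authors' p-values and enrichment on these same libraries. Read counts, ratios of CLIP over input and the calls made from them are therefore given as a description of the chosen genes, with no test of their own.

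By the labels, ADR-1 was pulled down through a 3xFLAG tag from whole, unsynchronized mixed-stage animals kept on plates at 20 °C. The data were 3 CLIP libraries and 3 size-matched inputs, numbered 1 to 3; the labels place all 6 in the tagged strain, while the file captions speak of wild-type animals and of eCLIP where the labels have iCLIP. Animals were crosslinked with ultraviolet light at 3 J/cm2, 5 mg of lysate was digested with 150 units of RNase I, and 2% was set aside as input before the beads were added. Untagged or mock pulldowns were not analysed here, so RNA in contact with ADR-1 and RNA held by the beads cannot be told apart, and one strain stands for the protein.

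ADARs are enzymes that convert adenosine to inosine in double-stranded RNA. ADR-1 has the double-stranded RNA binding domains but no deaminase activity, and it is known to steer the active enzyme ADR-2 to its targets. The 3' UTR is the stretch of a messenger RNA after the stop codon, where binding proteins and small RNAs act on stability and translation and where inverted repeats can fold into duplexes.

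The library totals behind the authors' statistics were 5773550 to 5776707 reads for CLIP and 2475470 to 4248676 for input, lowest in input 2. The 126 clusters held 16432, 3533 and 9839 CLIP reads in replicates 1, 2 and 3, or 0.284%, 0.0612% and 0.17% of the totals, against 226, 276 and 245 input reads. CLIP 2 gave the lowest of the 3 CLIP counts in 123 of 126 clusters, although its recovered total was as high as the others. Over all clusters in the list its median was also the lowest, 17 reads against 74 in CLIP 1 and 43 in CLIP 3. That the 3 totals are nearly equal leaves it unknown if they are each library's own depth. No deposited count is below 1, so a count of 1 may stand for 0.

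The name of the group holds in the list it was drawn from, with exceptions when other clusters of the same genes are counted. Of the 126 genes, 114 had no other cluster in either deposited list. A further 8 had another uniquely annotated cluster not placed in the 3' UTR alone, 13 clusters in all. Of these, 9 lay in introns and 4 were annotated to more than one location. The label of these 4 does not say if the 3' UTR is among their locations, so a second 3' UTR site is not excluded there. They belonged to gld-1, which had 2, to nhr-97 and to a ribosome biogenesis protein gene described below. crh-1, the CREB transcription factor gene, had 4 of the intron clusters, rga-4 had 2, and scm-1, tag-234 and sos-1 had 1 each. The remaining 4 genes (Y47G6A.5, R01H10.7, Y75B8A.6 and F53A2.9) had a second cluster only in the wider list of reproducible clusters.

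The median cluster held 55.5, 13 and 34.5 CLIP reads and 1, 2 and 1 input reads. CLIP counts ranged from 16 to 2374 in replicate 1, from 1 to 392 in replicate 2 and from 10 to 1358 in replicate 3, whereas the highest input counts were 9, 14 and 10. In 122 of the 126 clusters every CLIP count was above every input count, against 92.6% of all clusters in the list; clusters had been selected on this contrast. The exceptions were cnk-1, che-10, knl-2 and iars-2, in which CLIP 2 did not exceed its input. In 45 of 126 clusters (35.7%) all 3 inputs stood at 1, against 37.9% of all clusters in the list. With input medians of 1, 2 and 1, the precision of most ratios is set by very few input reads.

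Reads were concentrated in few genes. Of 29804 CLIP reads over the 126 clusters, 13.8% fell in sao-1, 32.7% in the 5 deepest clusters and 45.2% in the deepest 10. Summed over the 3 CLIP libraries, clusters ranged from 31 to 4124 reads with a median of 104.5.

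The ratio of CLIP over input, scaled for library totals and given as log2, had medians over the 126 clusters of 4.81, 1.59 and 4.17 in replicates 1, 2 and 3, a mean of 3.52 ± 1.71 (SD, n = 3). Mean ratios of single clusters ran from 1.36 to 7.62. Replicate 1 gave the highest of the 3 ratios in 99 clusters and replicate 2 the lowest in 123. Medians over all clusters in the list had the same order, 4.907, 2.1 and 4.285 in replicates 1, 2 and 3. All 3 ratios lay above 0 in 119 clusters; the other 7 (R148.3, cnk-1, rga-4, che-10, sqd-1, knl-2 and iars-2) were at or below 0 in replicate 2. The SD of a gene's ratio over replicates had a median of 1.72 and exceeded 2 in 35 genes. It was lowest in plpp-1.1, a lipid phosphate phosphatase gene, whose ratios were 3.88, 3.87 and 4.08, and highest in iars-2, an isoleucyl-tRNA synthetase gene, with 3.53, -2.81 and 3.36.

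**Figure D1:**
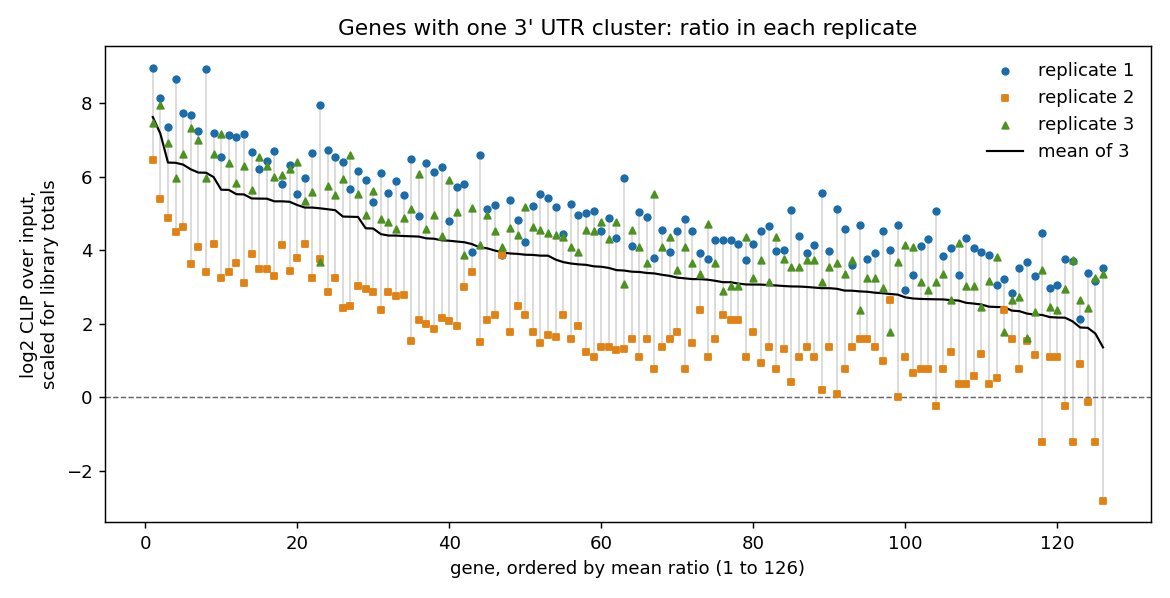
Library-scaled log2 ratio of CLIP over input for each of the 126 genes, ordered by the mean of 3 replicates (black line); points are single replicates and grey bars their range. Replicate 2 (orange squares) is the lowest point in 123 genes, and 7 genes reach 0 or below there.

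In the authors' deposited table, all 126 clusters had p under 0.05 in replicates 1 and 3, and 45 had it in replicate 2 as well. That is 35.7%, where 46.1% of all clusters in the list passed in all 3 replicates and 60.7% of the clusters of genes with 2 or more did. The list required such values, so nothing is read from these shares. In a fit of all clusters with edgeR's quasi-likelihood test and Benjamini-Hochberg adjustment, 70 of the 126 passed the filter on low counts and all 70 of these were called higher in CLIP, beside 99.0% of all tested clusters. Their median fitted log2 fold was 4.47, against 4.54 over all 389 tested clusters, and the remaining 56 genes were not tested. These calls depend on the recovered totals: TMM scaling, which places the median cluster near 0, called 4 of 47 tested members higher and 8 lower, with 21 fitted folds below 0. Of all 286 clusters tested with that scaling, 21 (7.34%) were called higher and 46 (16.1%) lower, shares close to those of the members. The 4 were C50D2.7, sao-1, aco-2 and sos-1. Without CLIP 2, 116 of 116 tested members were called, as were 100.0% of all tested clusters. Without CLIP 1 or CLIP 3 all 60 tested members were called (all clusters 95.8% and 97.5%). Without input 2 it was 121 of 126 (all clusters 96.2%), and without input 1 or 3 it was 99 and 100 of 126 (83.9% and 83.1%). For single genes only the fitted folds are given below, without their p-values. The 15 genes with the highest ratios had fitted log2 folds of 5.49 to 7.87, which were 0.64 to 2.78 with TMM scaling and 1.54 to 3.69 with DESeq2 size factors, and 6.10 to 9.97 with input counts of 1 taken as 0.

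The genes could be ordered by function for 86 of the 126, in 10 roles assigned from their names and annotation after those were seen. The other 40 were mostly genes with sequence names only or annotated as uncharacterized. The median of the mean log2 ratios by role ran from 2.72 for glycosylation and matrix (5 genes) to 4.32 for metabolism (9 genes), against 3.43 over all 126, and the roles overlapped in their values, except that the 2 cell death genes lay under all metabolic genes, the lowest of which was at 3.37. In a name-based count over 12 gene classes, 50 of the 126 genes matched a class. The largest were signalling with 8 members (273 RefSeq protein-coding genes match its names) and RNA processing and small RNA with 7 (203). Translation (225) and metabolic enzymes (538) had 6 each, so the counts do not compare classes of like size. No member matched the cytoskeleton class (144 RefSeq genes), of which 4 genes with 2 or more clusters were part. Channels and transporters (509) gave 4 members and 0 such genes. The classes follow the name alone, so that sao-1 stood among the metabolic genes and osm-11 among the transporters. These small differences were not tested.

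**Figure D2:**
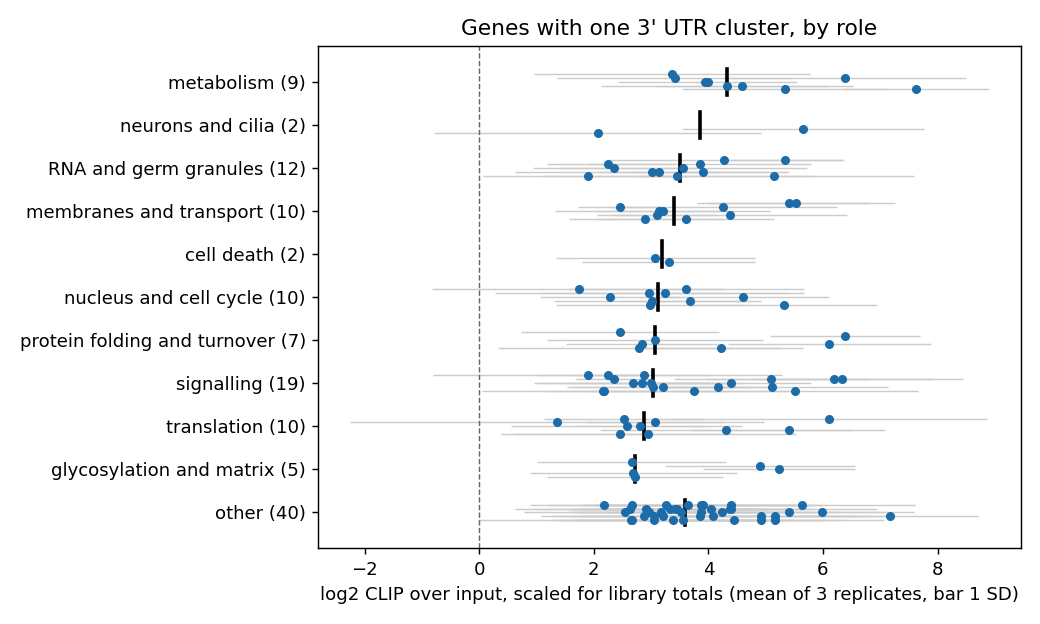
Mean library-scaled log2 ratio of CLIP over input for each gene (points, bars 1 SD over 3 replicates) by role, with the role's median as a black line and the number of genes in brackets. The medians lie between 2.72 and 4.32 and the ranges of the larger roles overlap.

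Metabolic enzymes included the highest ratio in the group. C50D2.7 (WBGene00016810, chromosome II, 92318 to 92439, minus strand), annotated as a putative ADP-dependent glucokinase, held 1391, 204 and 715 CLIP reads against 2, 1 and 3 input reads. All CLIP counts were far above all inputs, and CLIP 1 was the deepest. Its log2 ratio was 7.62 ± 1.27 (SD, n = 3), with a fitted log2 fold of 7.87. Pooled over replicates this was a 242-fold excess, with a 95% exact interval of 111 to 660 that covers counting error only.

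aco-2, which encodes the mitochondrial aconitase of the citric acid cycle, held 564, 105 and 257 CLIP reads against 1, 2 and 3, with no overlap between the groups. Its fitted log2 fold was 6.49. cyc-1, the cytochrome c1 gene of respiratory complex III, held 431, 92 and 174 CLIP reads against 3, 4 and 2. The dehydrogenase genes dhs-13 and alh-7 were lower, with 116, 28 and 98 CLIP reads against 1, 3 and 3 for dhs-13. alh-7, an aldehyde dehydrogenase gene known to be edited, held 58, 16 and 63 against 3, 4 and 1. The sphingosine phosphate lyase gene spl-3 held 46, 5 and 46 CLIP reads against 1, 1 and 2. Its log2 ratios were 5.05, 1.1 and 4.08 in replicates 1, 2 and 3.

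The deepest cluster belonged to sao-1 (WBGene00011195, chromosome V, 13965248 to 13965352, plus strand), a gene for a GYF domain protein, with 2374, 392 and 1358 CLIP reads against 6, 4 and 4. The lowest CLIP count was many times the highest input count. The log2 ratio was 7.17 ± 1.54 (SD, n = 3) and the fitted log2 fold 7.47, a pooled 185-fold excess (95% exact interval 110 to 339).

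Genes known by sequence name also reached the highest 15. W02H5.2, annotated as uncharacterized, held 203, 42 and 133 CLIP reads against 1 in each input, with a fitted log2 fold of 6.15. F07C6.4, annotated with a CUPID domain, held 196, 25 and 112 against 1 in each input, with a fitted log2 fold of 5.97. With those inputs taken as 0 the fits gave 9.68 and 9.50.

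Translation was represented along the initiation pathway. ife-3 (WBGene00002061, chromosome V, 6779 to 6871, minus strand), one of the cap-binding eIF4E proteins, held 681, 125 and 425 CLIP reads against 1, 5 and 5 input reads. CLIP was above input throughout, and the log2 ratio was 6.11 ± 2.76 (SD, n = 3), with a fitted log2 fold of 5.99. Its partner gene ifg-1, the eIF4G scaffold, had far fewer reads, 45, 29 and 14 against 2, 2 and 3. ifet-1, a repressor that binds eIF4E and acts in germ granules, held 184, 42 and 121 CLIP reads but also the highest input counts of the group, 9, 14 and 10. Its log2 ratio was 2.47 ± 1.86 (SD, n = 3), with every CLIP count above every input.

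iffb-1, the gene of the subunit-joining factor eIF5B, held 206, 26 and 125 CLIP reads against 2, 1 and 1, and its fitted log2 fold was 5.70. Of the eIF3 subunit genes, eif-3.E held 97, 17 and 42 CLIP reads against 1, 2 and 1, and eif-3.G held 28, 3 and 11 against 1, 1 and 1. The cluster of eif-3.G was among the 5 narrowest, at 54 bases. iars-2 stood at the other end with 16, 1 and 14 CLIP reads against 1, 3 and 1; replicate 2 had more input than CLIP reads and the cluster did not pass the edgeR filter. The mitochondrial ribosomal protein gene mrps-31 held 25, 8 and 13 CLIP reads against 1 in each input, and Y39B6A.33, annotated as a ribosome biogenesis protein gene, held 48, 5 and 17 against 1, 2 and 1. The latter gene also had a cluster annotated to more than one location, with 42, 3 and 17 CLIP reads.

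RNA-binding and germ granule genes numbered 12. hrde-1, the nuclear Argonaute gene of heritable RNA interference, held 467, 82 and 270 CLIP reads against 6, 2 and 3, a log2 ratio of 5.33 ± 1.04 (SD, n = 3). znfx-1, a helicase gene of germ granules, held 39, 13 and 29 against 1 in each input, and the DEAD-box helicase gene cgh-1 held 262, 46 and 80 against 3, 8 and 7. These inputs of cgh-1 exceeded those of most members, as did those of the translational regulators below.

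gld-1, a KH-domain translational repressor of the germline, held 109, 31 and 54 CLIP reads against 8, 6 and 8. Its 2 clusters annotated to more than one location held 41, 12 and 23 and 36, 11 and 20 CLIP reads. lin-41, a TRIM-NHL protein gene that regulates oocyte messages, held 143, 28 and 63 against 3, 9 and 4. sqd-1 held 87, 17 and 51 against 6, 8 and 7, and all CLIP counts of these 3 genes were above their inputs. Scaled for library totals, however, the log2 ratio of sqd-1 was at or below 0 in replicate 2. sfa-1, the splicing factor SF1 gene, held 106, 21 and 57 against 1, 2 and 2, and rbm-26, an RNA-binding motif gene, held 59, 15 and 30 against 1, 2 and 1. As background on tissue, gld-1 and cgh-1 were the members among 7 listed germline markers. Of the other lists, 0 of 5 muscle, 0 of 4 neuron, 0 of 4 intestine and 0 of 3 hypodermis markers were members. The muscle markers act-4 and mlc-1 and the neuron marker unc-64 also had 3' UTR clusters, but 2 or more each, so the rule left them out. Whole animals do not separate tissues.

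Signalling was the largest role with 19 genes. sos-1 (WBGene00004947, chromosome V, 4517282 to 4517574, minus strand), the Ras nucleotide exchange factor gene, had the widest cluster, 292 bases, with 595, 174 and 398 CLIP reads against 2, 3 and 3. Its fitted log2 fold was 6.40. Its additional intron cluster had 30, 1 and 16 CLIP reads against 1, 1 and 2, far fewer than the 3' UTR. max-2, a p21-activated kinase gene of axon guidance, held 282, 86 and 217 CLIP reads against 1, 3 and 1, with a fitted log2 fold of 5.99.

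A transcription factor and its coactivator were both members. crh-1 held 198, 40 and 107 CLIP reads against 1, 2 and 1 in its 3' UTR cluster, and its 4 intron clusters held 18 to 29 reads in CLIP 1. crtc-1, the CREB-regulated coactivator gene, held 148, 17 and 73 against 1 in each input; this pair was chosen after its values were seen. The fitted log2 fold of crh-1 was 5.58. In both genes CLIP and input counts did not overlap and CLIP 2 was the lowest CLIP library.

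The signalling genes described next held fewer CLIP reads than crh-1, summed over the 3 libraries. rga-4 held 38, 4 and 21 CLIP reads against 2 in each input, with 2 intron clusters besides. The p38 MAP kinase gene pmk-1 held 24, 4 and 12 against 1 in each input. Among receptors and adaptors, mom-5, a Frizzled receptor gene of the Wnt pathway, held 19, 7 and 13 against 1 in each input, the 14-3-3 gene par-5 held 90, 29 and 55 against 4, 5 and 3, and the G protein beta subunit gene gpb-1 held 64, 28 and 32 against 2, 6 and 3. osm-11, a Notch co-ligand gene and one of only 2 members on chromosome X, held 100, 22 and 116 against 2, 3 and 4.

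ptc-1, a Patched-family gene, was among the 5 lowest with 49, 22 and 34 CLIP reads against 8, 5 and 4, CLIP being above input in every library. Its fitted log2 fold of 1.90 became -2.91 with TMM and -1.98 with DESeq2 size factors. sqd-1, also among the lowest, had a fitted log2 fold of 2.11, which became -2.84 with TMM and -1.93 with DESeq2 size factors. 

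**Figure D3:**
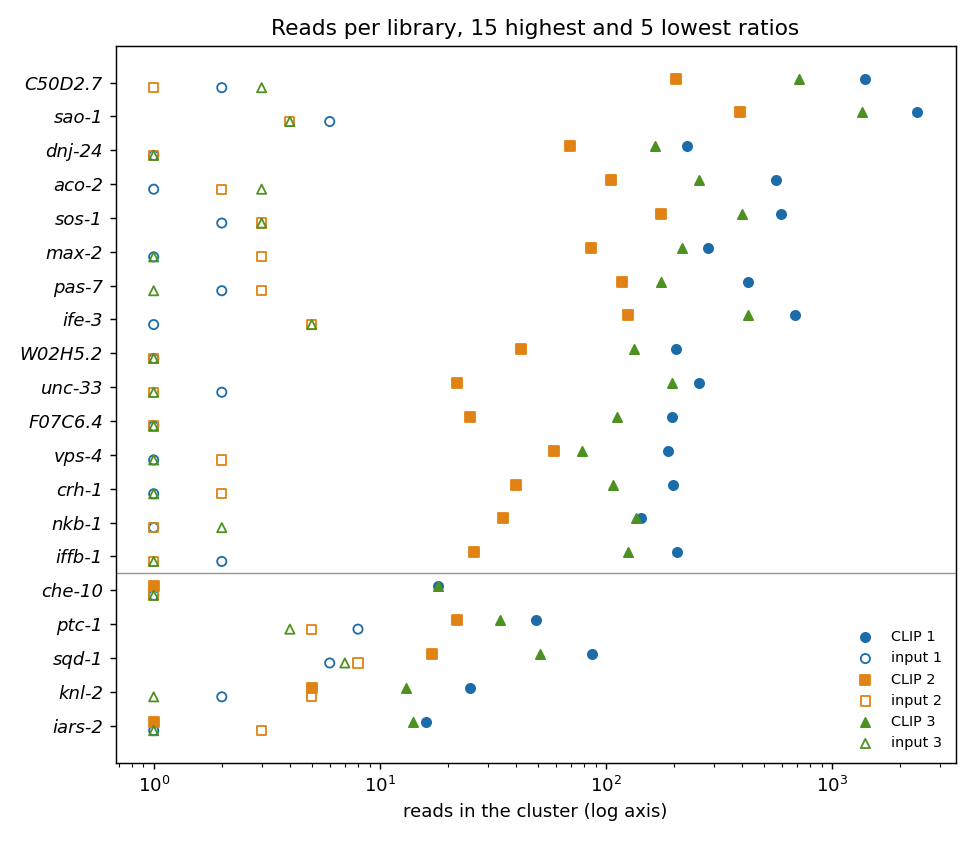
Reads in the cluster of the 15 genes with the highest and the 5 with the lowest mean ratio (below the grey line), on a log axis; filled symbols are CLIP libraries and open symbols inputs. In the upper genes all CLIP libraries stand clear of all inputs, while in che-10, knl-2 and iars-2 CLIP 2 meets or falls under an input.

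Chaperone and turnover genes were led by dnj-24, a J domain co-chaperone gene, with 227, 69 and 164 CLIP reads against 1 in each input and a fitted log2 fold of 6.43. With those inputs taken as 0 the fit gave 9.97, so the size of this fold is not fixed by the data. pas-7, a proteasome alpha subunit gene, held 424, 118 and 175 against 2, 3 and 1, with a fitted log2 fold of 6.06. The mitochondrial Hsp70 gene hsp-6 held 155, 37 and 99 CLIP reads against 2, 2 and 5. The chaperonin subunit gene cct-8 held 32, 9 and 18 against 1, 2 and 1 and was not tested.

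Membrane genes contained 2 pairs of complex partners. The ESCRT genes vps-4 and vps-32.1, whose products act in membrane scission, held 187, 59 and 78 CLIP reads against 1, 2 and 1, and 116, 39 and 82 against 3, 4 and 1. The V-ATPase subunit genes vha-16 and vha-5 held 85, 20 and 92 against 2, 2 and 1, and 19, 5 and 36 against 1 in each input; in both, CLIP 3 and not CLIP 1 was the deepest. nkb-1, the beta subunit gene of the sodium-potassium pump, held 142, 35 and 136 against 1, 1 and 2. The fitted log2 folds of vps-4 and nkb-1 were 5.49 and 5.52. The endocytic adaptor gene itsn-1 was shallow, with 39, 12 and 14 against 3, 1 and 3, and so was the secretory carrier membrane protein gene scm-1, with 17, 6 and 18 against 1 in each input.

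Among matrix genes, lam-1, which encodes a laminin beta chain of basement membranes, held 128, 32 and 114 CLIP reads against 2, 1 and 1. The glycosylation gene algn-14 held 42, 10 and 24 against 4, 2 and 1. The glycosyltransferase genes gly-9 and rib-2 held 28, 11 and 23 against 2, 3 and 1, and 20, 4 and 14 against 1 in each input. Of genes of the nucleus and cell cycle, the nuclear receptor gene nhr-97 held 83, 18 and 42 against 1 in each input, and the cyclin E gene cye-1 held 71, 27 and 42 against 4, 4 and 10. A cluster of nhr-97 annotated to more than one location lay 24 bases away and held 83, 11 and 47 CLIP reads. The RCC1 gene ran-3 held 66, 8 and 36 against 1, 3 and 3, with replicate 2 the weakest. The phosphatase gene cdc-25.2, of the family that activates cyclin-dependent kinases, held 29, 5 and 16 against 1 in each input.

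The nuclear receptor gene nhr-173 held 30, 11 and 28 CLIP reads against 1 in each input, the zinc finger gene ztf-29 held 45, 11 and 32 against 1, 2 and 1, and pqn-80, annotated with a HUN domain, held 32, 6 and 37 against 1 in each input. All their CLIP counts were above all their inputs.

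knl-2, a kinetochore gene needed for centromeric chromatin, held 25, 5 and 13 CLIP reads against 2, 5 and 1, equal in replicate 2. Its fitted log2 fold was 1.59 and became -2.40 with DESeq2 size factors. In neurons and cilia, unc-33, a CRMP-family gene of axon growth, held 258, 22 and 195 CLIP reads against 2, 1 and 1 with a fitted log2 fold of 6.11, whereas che-10, the rootletin gene, held 18, 1 and 18 against 1 in each input.

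Cluster width, which the choice of genes did not use directly, had a median of 96.5 bases with quartiles of 77 and 126. The range ran from 41 bases in iars-2 to 292 in sos-1. The narrowest after iars-2 were tag-234 at 48, cand-1 at 49, eif-3.G at 54 and T24B8.7 at 58 bases, and the widest before sos-1 were C53A5.6 at 285, F07C6.4 at 264, Y39E4B.10 at 261 and Y18D10A.3 at 225 bases. Among the widest, Y39E4B.10 was deep with 417, 89 and 326 CLIP reads against 3, 4 and 5. C53A5.6 held 124, 27 and 95 against 1, 4 and 2, and Y18D10A.3 held 52, 11 and 31 against 1 in each input. The narrow clusters were shallow: tag-234 held 23, 7 and 11 against 1, 2 and 1, and cand-1 and T24B8.7 held 21, 6 and 13 and 21, 12 and 14 against 1 in each input. Clusters of genes with 2 or more had a median of 81 bases, and the most read cluster of each such gene one of 105. The latter was picked by reads out of 2 or more, which favours wide clusters. Width and CLIP reads went together within these 3' UTR clusters. The Spearman correlation was 0.543 over the 126 genes and 0.526 over 305 clusters of the other genes. Over all uniquely annotated clusters it was only 0.108, so the relation did not hold for the list as a whole. Width and read number come from the same reads.

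Clusters of genes with 2 or more were deeper, with medians of 99, 22 and 57 CLIP reads, and their median log2 ratios were 5.53, 2.82 and 4.84 in replicates 1, 2 and 3. The difference, the 126 genes minus these clusters, was -0.72, -1.24 and -0.67, a mean of -0.88 ± 0.31 (SD, n = 3), with the same sign in all 3 replicates. It was not tested, since number and depth of clusters come from the same libraries, and the smallest p that an exact sign-flip test can give with 3 replicates is 0.25. Just outside the rule, the 61 genes with exactly 2 clusters had a median width of 80.5 bases and a mean of median log2 ratios of 4.09 ± 1.43 (SD, n = 3). A further 6 genes had no cluster in the 3' UTR alone but 1 annotated to more than 1 location. The label of that cluster does not say if the 3' UTR is among its locations.

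Position in the gene was taken from the RefSeq annotation of WBcel235, to which all 126 genes matched, 118 by symbol and 8 by locus tag; F22D6.2 and F48E8.4 lay outside the annotated gene and gave no distance. The cluster midpoint lay a median of 311 bases upstream of the annotated 3' end of the gene, with quartiles of 188 and 481 over 124 genes. The distance ranged from 47.5 bases in C35D10.10 to 3023 in F07C6.4, and 8 genes (6.45%) were within 100 bases. For 301 clusters of genes with 2 or more the median was 457.5 bases, and for the cluster nearest to the end in each of those genes it was 260.75. Taking the nearest of 2 or more clusters lowers that distance by choice. At its 3' end, 29 of 124 genes (23.4%) overlapped the next protein-coding gene, against 24 of 104 (23.1%) of genes with 2 or more.

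**Figure D4:**
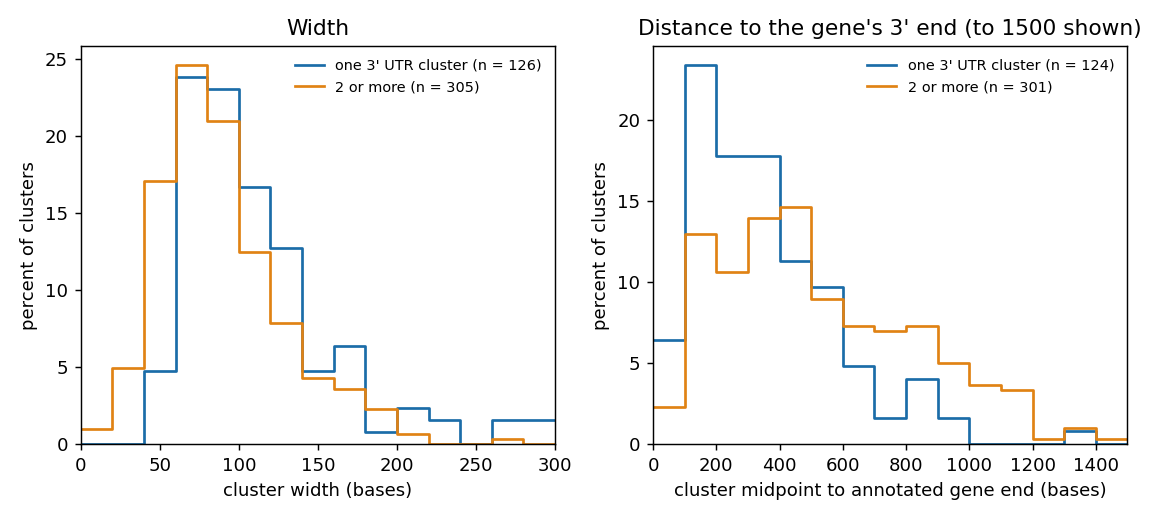
Percent of clusters by width (left) and by distance from the cluster midpoint to the annotated 3' end of the gene (right) for genes with 1 3' UTR cluster and for the clusters of genes with 2 or more. Over all clusters drawn, the first group has the larger median width, 96.5 against 81 bases. Its median distance to the gene end is smaller, 311 against 457.5 bases. Both orders turn with 1 cluster per gene in the second group, but that cluster was picked out of 2 or more. Such a choice favours wide or near clusters by itself, so nothing is read from the turn. The most read cluster has a median width of 105 bases, and the cluster nearest to the end a median distance of 260.75. Distances past the end of the axis are not drawn.

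Among the reproducible clusters, 3 pairs overlapped on opposite strands; all 3 included members and all lay on chromosome III. ced-6, an engulfment adaptor gene (plus strand, 5597965 to 5598061), and wdr-37, a WD-repeat gene (minus strand, 5597979 to 5598072), are both members and their clusters shared 82 bases. CLIP reads were 56, 10 and 28 for ced-6 and 55, 8 and 31 for wdr-37, against inputs of 3, 2 and 1 and of 2, 2 and 3. The genes' annotated ends overlap here. In CLIP the counts given for both strands differed by at most 3 reads in each replicate.

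C35D10.10, annotated as a thioredoxin-related transmembrane protein gene (minus strand, 4860685 to 4860776), shared 86 bases with a cluster of C35D10.6 on the plus strand, with 36, 7 and 14 CLIP reads against 31, 8 and 13 on the other strand. rib-2, a heparan sulfate synthesis gene, shared 40 bases with a cluster of ran-1, the Ran GTPase gene, whose cluster is in the reproducible list only; CLIP reads were 20, 4 and 14 for rib-2 and 32, 11 and 13 for ran-1. The sources used here do not say if counting used the strand of a read, and whether the same reads were counted on both strands was not tested. These pairs were picked out after their values were seen.

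**Figure D5:**
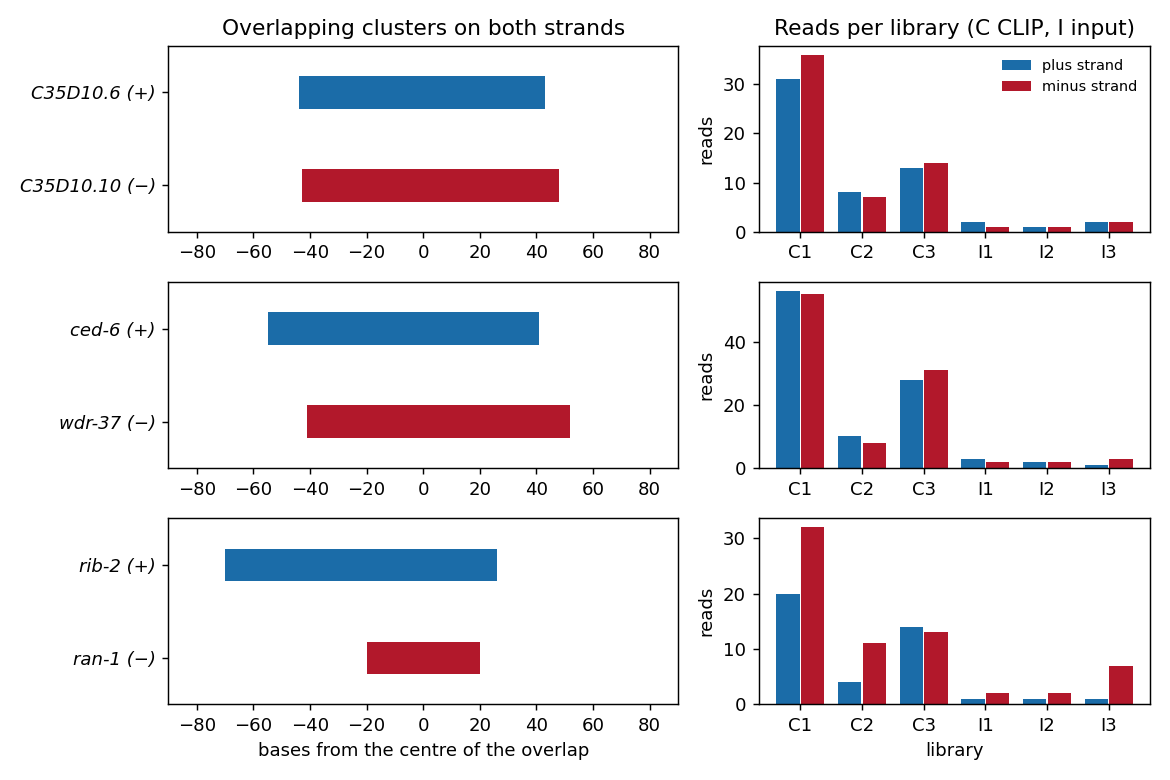
The 3 overlapping cluster pairs drawn in bases from the centre of each overlap (left; blue plus strand, red minus strand) and their reads in each library (right; C CLIP, I input, numbered by replicate). CLIP counts on both strands are close in every replicate for ced-6 with wdr-37 and for C35D10.10 with C35D10.6, and differ more for rib-2 with ran-1, 20 against 32 in CLIP 1.

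By chromosome, 40 of the 126 genes (31.7%) lay on chromosome III, which holds 13.2% of the RefSeq protein-coding genes, and 2 (1.59%), nhr-173 and osm-11, on the X chromosome, which holds 13.7%. Chromosome V, the richest with 4995 protein-coding genes in RefSeq, gave 16 members (12.7%). Of the genes with 2 or more clusters, 35 of 106 lay on chromosome III and 3 on X. Chromosome I held 30.2% of these and 21.4% of the 126, and chromosome IV 5.66% and 15.1%. The shares are a description and were not tested; the genes expressed in these animals by chromosome are not analysed here.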

How the data were processed

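RNA of 3 CLIP and 3 input libraries was measured. The submitters' processing notes name fastp 0.21.0, STAR 2.7.10b and the builds ce11 and WBcel235. CLIPPER called the clusters and WormBase gave their annotation, per the file captions. For each cluster and library the authors deposited a raw read count, none below 1. They also deposited p-values of chi-square or Fisher tests, chi-square scores, a log2 fold that was found not to be scaled for library totals, and a column named Entropy whose values were found to be log2 ratios scaled for them. Coordinates are as deposited, with counting from 0 or 1 not given in the sources used here; width is end minus start. Per the file captions the replicates are biological; separate cultures are not stated in the labels, so a p-value measures only how these libraries vary, which may be technical.

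Library totals were recovered by fitting the chi-square statistic to the deposited scores, which met 130 of 130, 73 of 76 and 116 of 116 scores; ratios recomputed from them were within 0.00499 of the deposited ones. Nothing was added to the counts in the ratios, since no count was 0; adding 1 read had been written down as the main choice and became an alternative. CLIP was compared with input over all uniquely annotated clusters with edgeR 4.0.16 (glmQLFit, glmQLFTest, filterByExpr, no replicate block, adjusted p threshold 0.05) in R 4.3.3, with DESeq2 1.42.0 as an alternative. Both steps were tested on simulated data. Same-numbered CLIP and input libraries share a lysate per the labels' protocols, and once group means were removed they correlated at 0.251, 0.103 and 0.0105. The members, gene classes and tests were chosen with earlier results of these data known. Fitted folds are given from the 15 highest and 5 lowest mean ratios, of which che-10 and iars-2 were not tested; counts are given for these, for the 5 widest and 5 narrowest clusters, for members in a gene class or with another cluster, and for a few genes named as chosen after their values were seen. The values of a signalling gene are not reported here.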

Additional observations from a re-analysis of the deposited data

How the results depend on the processing

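The number of members called higher in CLIP by edgeR was 70 of 70 tested, beside 99.0% of all tested clusters. It was 4 of 47 with TMM scaling (all clusters 7.34%) and 12 of 126 with DESeq2 size factors (10.7%). In these 2 settings 8 and 5 members were called lower (all clusters 16.1% and 5.35%). With DESeq2 on the library totals it was 124 of 126 (98.6%), and without the filter on low counts 124 of 126 (98.9%). Leaving out 1 library gave the fewest without CLIP 1 or CLIP 3, 60 of 60 (all clusters 95.8% and 97.5%). The most were 121 of 126, without input 2 (96.2%). Without CLIP 2 it was 116 of 116 (100.0%), because more clusters then passed the filter. With the replicate block it was 70 of 70 (all clusters 98.7%), and the pairing changed no member's call. The median fitted log2 fold was 4.47, and 0.376 with TMM and -0.361 with DESeq2 size factors; these scalings moved the median of all clusters from 4.54 to 0.02 and -0.17. Leaving out 1 library gave 3.50 to 4.51. The folds of sqd-1 and ptc-1 turned negative in both scalings (-2.84 and -1.93, -2.91 and -1.98), and that of knl-2 with DESeq2 size factors (-2.40). Over the named genes and alternatives, 196 values kept direction and call, 29 lost the call and 5 turned. The median width of 96.5 bases became 100 with clusters over more than one location counted, 98.5 without genes with another uniquely annotated cluster and 100 without genes with another cluster in either list, and the distance to the gene end became 250.5 bases when measured from the downstream edge; the latter width and this distance were added after the data were seen. The mean log2 ratio of 3.52 was 3.12 with 0.5 read and 2.80 with 1 read added to each count, and ranged from 2.88 to 4.49 without 1 replicate and the difference from genes with 2 or more from -0.98 to -0.70. Input counts, with medians of 1, 2 and 1 reads, limit every ratio.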
